A study of Mus musculus with 6 samples.

Results

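The C/EBP family, or CCAAT/enhancer-binding proteins, was followed across kidney arrays of newborn mice. The family was taken as 6 genes, Cebpa, Cebpb, Cebpd, Cebpe, Cebpg and Cebpz, out of 20659 named genes on the array. Each gene was read by 1 probe, found through the RefSeq accession that the probe targets. The 3 arrays labelled USP10 KO came from kidneys of neonates with a knockout of Usp10, which encodes a deubiquitinating enzyme, and the 3 arrays labelled USP10 WT from wild-type neonates. All 6 neonates are labelled male, were sampled about 6 hours after birth and are described as independent animals. The strain, the deleted part of Usp10 and whether the knockout is limited to some cells are not given in the sources used here. In RNA of a whole organ, fewer cells of a type and less RNA per cell cannot be told apart.

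C/EBP proteins bind DNA through a basic region and pair through a leucine zipper, with themselves or with one another. C/EBP alpha drives differentiation of liver, fat and granulocytes, while C/EBP beta and C/EBP delta are induced quickly by cytokines, glucocorticoids and cAMP and switch on acute phase and early adipocyte genes. C/EBP epsilon acts late in granulocyte maturation, and C/EBP gamma lacks an activation domain and works mainly as a partner of other members. The gene Cebpz carries the family name but encodes an unrelated CCAAT-binding protein with no leucine zipper, whose yeast relative works in assembly of the large ribosomal subunit. In kidney, C/EBP beta and C/EBP delta are known from injury and inflammation.

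Of the 6 members, 3 matched an entry of the RefSeq promoter table used here, Cebpb, Cebpa and Cebpg, and Cebpd, Cebpe and Cebpz are named only. The 3 promoters are shown because the sections below describe the levels of these genes. Each line gives the 250 bases before the gene's start (RefSeq, build GRCm38.p6), 5′ to 3′ on the gene's own strand, which is the plus strand for Cebpb (chr2:167688665-167688914) and Cebpa (chr7:35119043-35119292) and the minus strand for Cebpg (chr7:35056567-35056816). Capitals mark the cAMP response half-site TGACG and the CCAAT box CCAAT, on either strand.
Cebpb: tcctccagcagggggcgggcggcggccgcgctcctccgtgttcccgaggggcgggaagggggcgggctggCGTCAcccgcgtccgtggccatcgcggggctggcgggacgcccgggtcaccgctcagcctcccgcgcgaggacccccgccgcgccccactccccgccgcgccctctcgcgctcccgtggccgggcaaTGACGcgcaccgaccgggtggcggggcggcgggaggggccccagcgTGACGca
Cebpa: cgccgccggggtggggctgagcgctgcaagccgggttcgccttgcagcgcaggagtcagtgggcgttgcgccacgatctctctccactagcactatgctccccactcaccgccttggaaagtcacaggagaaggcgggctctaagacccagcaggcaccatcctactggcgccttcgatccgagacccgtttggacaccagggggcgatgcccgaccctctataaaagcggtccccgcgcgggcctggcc
Cebpg: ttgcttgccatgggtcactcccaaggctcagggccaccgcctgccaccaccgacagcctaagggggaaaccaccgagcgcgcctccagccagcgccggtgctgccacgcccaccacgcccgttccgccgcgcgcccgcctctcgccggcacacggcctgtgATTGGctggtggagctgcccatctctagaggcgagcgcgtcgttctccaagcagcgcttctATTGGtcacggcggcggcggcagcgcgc
The window of Cebpb held 3 matches to TGACG, starting at -180, -53 and -7 relative to the gene's start, and 5 matches to the GC box GGGCGG. Of 32851 promoter windows of the same length, 17.8% held at least 1 TGACG and 0.688% held 3 or more, while 1.93% held 5 or more GC boxes. The window of Cebpg held 2 CCAAT boxes, and 10.1% of all windows held 2 or more. The window of Cebpa held the TATA box TATAAA, at -30 and found in 12.4% of windows. The C/EBP site TTGCNNAA, the glucocorticoid receptor half-site AGAACA and the STAT site TTCNNNGAA, found in 9.56%, 16.1% and 7.02% of windows, were not in these letters on either strand. GC content was 81.6%, 66.4% and 70.8% in the windows of Cebpb, Cebpa and Cebpg, against a median of 52.4%. A match is a run of letters and not a measured binding site. Only exact matches were counted, so TTGCGCCA in the Cebpa window, which differs from TTGCNNAA by 1 letter, was not. A window without a match may still hold a site.

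The arrays were comparable but not alike. By correlation across the tested genes they did not group by label. KO replicate 1 and WT replicate 2 were closest to each other (r = 0.993), as were KO replicate 3 and WT replicate 1 (r = 0.989). KO replicate 2 was closest to KO replicate 1 (r = 0.982) and WT replicate 3 to WT replicate 2 (r = 0.990). The scanner software flagged 64.4% to 73.9% of the 43020 gene spots of an array as well above background, and 0 as saturated. The headers give 2 scan times, called scans here. Scan 1 held KO replicates 1 and 2 with WT replicates 2 and 3, and scan 2 held KO replicate 3 with WT replicate 1. The kidney markers fixed for the tissue check, such as Lrp2, Umod and Six2, were well above background on all arrays for 12 of 12 genes. The Usp10 probe went against the labels, with levels of 3.37 to 3.64 on the arrays labelled KO and 2.95 to 3.13 on those labelled WT (log2 difference 0.49 ± 0.16, SE, limma adjusted p = 0.416). Where this probe lies relative to the deletion is not known here, so it may check nothing. On WT replicate 2 the transcripts of Uty, Ddx3y and Eif2s3y, all Y-linked, were not well above background, and Xist was above it by both of its probes on WT replicate 2 and by 1 of 2 on WT replicate 1, although all animals are labelled male. On WT replicate 1 the same Y-linked transcripts were well above background together with Xist, and the reason was not tested. Every direction below therefore rests on the labels, and the leading differences are also given without those arrays.

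Levels below are log2 of the spot intensity minus the array's 75th percentile, so 0 is that percentile itself. A level serves to compare arrays for 1 gene, since probes of different genes bind with different strength and give no order among genes. The family was chosen by name, but with its KO against WT levels in these same arrays already known. The differences between KO and WT are therefore given as a description, and p-values from the fit across all genes say only where a gene fell in that fit.

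Among the 4 members that act as activators, Cebpd and Cebpb stood apart between the groups, Cebpe was dim and Cebpa lay at the edge of detection. Cebpd stood at 3.83, 4.26 and 3.93 on the arrays labelled KO, against 2.22, 2.23 and 2.10 on those labelled WT. The lowest KO array was well above the highest WT array, and the WT arrays lay close together. The means were 4.005 ± 0.23 on the KO arrays and 2.18 ± 0.07 on the WT arrays (SD, n = 3 each), a log2 difference of 1.82 ± 0.18 (SE), or 3.54-fold higher. In limma, a linear model fitted to all 21220 genes with p-values adjusted by Benjamini-Hochberg, Cebpd was the member that passed an adjusted p of 0.05 (adjusted p = 0.0443). It was 1 of 5 members tested, where 0.0189% of all genes passed as higher, 0.0613% as lower and 0.0801% in either direction. At an unadjusted p under 0.05, 2 of the 5 members, Cebpd and Cebpb, were higher and 0 lower, where 6.15% of all genes were higher, 4.23% lower and 10.4% either. A log2 difference of at least this size was found for 34 of the 21220 genes, or 0.16%. The gene lies on chromosome 16.

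The separation of Cebpd was also present in the intensities before any scaling. The spot gave 6703, 5863 and 4963 intensity units on the KO arrays and 2293, 2292 and 2474 on the WT arrays. The KO arrays were the dimmer ones as a whole, with 75th percentiles of 472, 306 and 326 units against 493, 488 and 579 on the WT arrays. Within scan 1 the log2 difference of Cebpd was 1.88 and within scan 2 it was 1.71, and with scan as a block the limma adjusted p was 0.0350, where 0.123% of all genes passed as higher, 0.17% as lower and 0.292% in either direction. Without WT replicate 1 it was 1.84, without WT replicate 2 it was 1.85, and against WT replicate 3 alone it was 1.91. Leaving out any 1 of the 6 arrays gave a log2 difference between 1.70 and 1.91 and ended the call (limma adjusted p between 0.0626 and 0.254).

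Cebpb stood at 3.07, 3.41 and 3.47 on the arrays labelled KO, against 2.57, 2.23 and 2.30 on those labelled WT. The groups did not overlap, and the gap between the lowest KO and the highest WT array was narrower than for Cebpd. The means were 3.31 ± 0.22 on the KO arrays and 2.37 ± 0.18 on the WT arrays (SD, n = 3 each), a log2 difference of 0.95 ± 0.19 (SE), or 1.93-fold. Cebpb did not pass in the fit across all genes (limma adjusted p = 0.183, and 0.0778 with scan as a block), and its 95% interval ran from 0.51 to 1.39. A log2 difference at least as large was found for 412 genes, or 1.94% of those tested. The log2 difference was 0.97 within scan 1 and 0.90 within scan 2. It was 1.05 without WT replicate 1, 0.88 without WT replicate 2 and 1.01 against WT replicate 3 alone. Unscaled, the spot gave 3957, 3255 and 3605 units on the KO arrays and 2919, 2292 and 2854 on the WT arrays, again with no overlap. Cebpd and Cebpb were 2 of 5 tested members whose KO arrays all lay above their WT arrays, where 10.1% of all genes tested did so while 8.1% lay wholly below and 18.2% did not overlap in either direction.

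**Figure D1:**
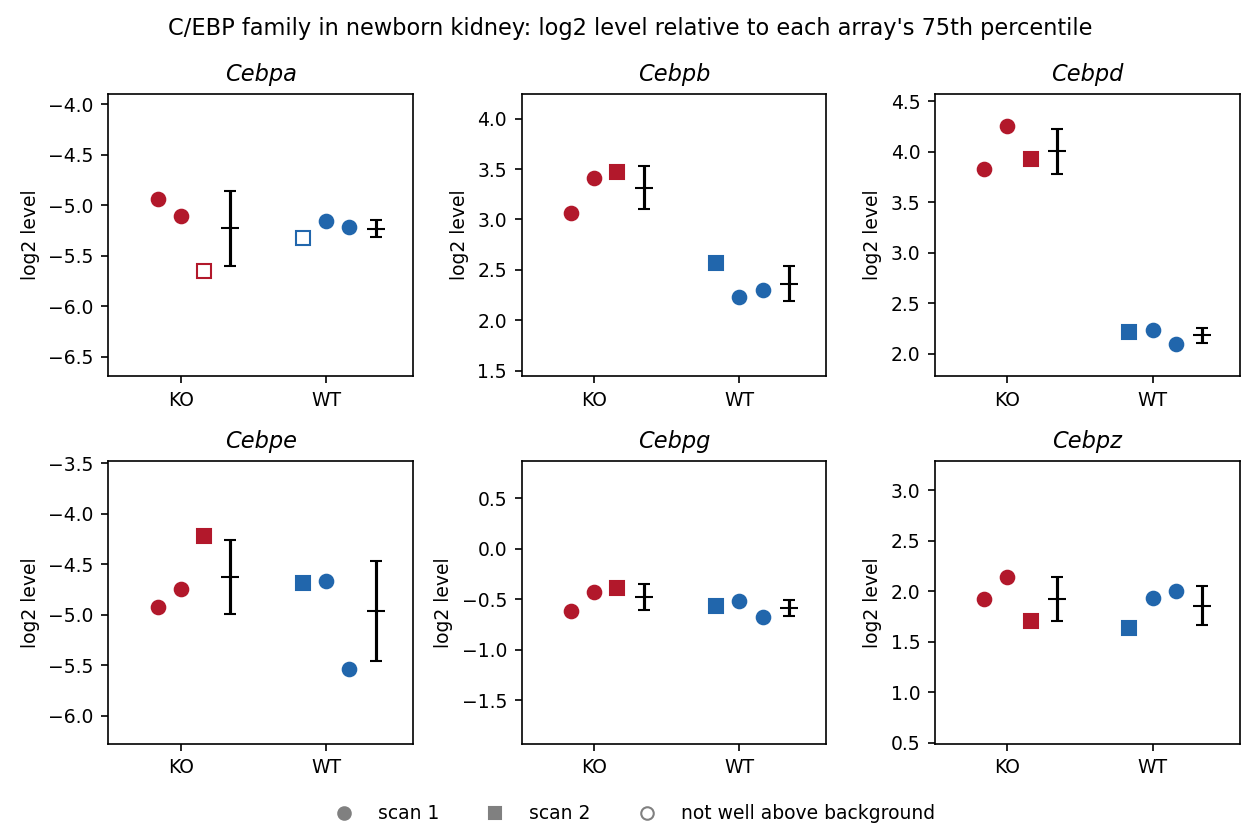
Level of each C/EBP family gene on each array (y axis, log2 relative to the array's 75th percentile, all panels spanning the same range), with KO to the left of WT, circles for scan 1, squares for scan 2, open symbols for spots not well above background, and bars for mean and SD (n = 3). The KO arrays lie above all WT arrays for Cebpd (3.83 to 4.26 against 2.10 to 2.23) and Cebpb (3.07 to 3.47 against 2.23 to 2.57) and mix with them for the other 4 genes.

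Cebpa, the member known for terminal differentiation, was close to the limit of detection. Its spot was well above background on 2 of 3 KO arrays and 2 of 3 WT arrays, with both arrays of scan 2 below. It therefore did not enter the fit, which took genes well above background on every array of at least 1 group. The levels were -4.94, -5.10 and -5.65 on the KO arrays and -5.32, -5.15 and -5.22 on the WT arrays. The groups overlapped, with means of -5.23 ± 0.37 for KO and -5.23 ± 0.08 for WT (SD, n = 3 each). The log2 difference was 0.17 within scan 1 and -0.32 within scan 2, where neither array was above background, and it was 0.21 without KO replicate 3 and -0.042 without WT replicate 1, so Cebpa had no settled sign. The spot gave 6.52 to 15.4 intensity units on the KO arrays and 12.3 to 15.6 on the WT arrays, so a modest difference could not be detected at this brightness.

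Cebpe, the granulocyte member, was dim but well above background on all 6 arrays. Its levels were -4.92, -4.74 and -4.22 on the KO arrays and -4.69, -4.66 and -5.54 on the WT arrays. WT replicate 3 was the low array and KO replicate 3 the high one, and the other 4 arrays mixed. The log2 difference was 0.34 ± 0.30 (SE, limma adjusted p = 0.680), with a 95% interval from -0.37 to 1.04. It was 0.049 without WT replicate 3 and 0.91 against WT replicate 3 alone. The wide interval leaves room for a change in either direction.

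Cebpg, the partner without an activation domain, and Cebpz, the unrelated CCAAT-binding protein, had differences near 0. Cebpg stood at -0.62, -0.43 and -0.39 on the KO arrays and at -0.57, -0.52 and -0.68 on the WT arrays. The arrays of both groups mixed, and the log2 difference was 0.11 ± 0.16 (SE, limma adjusted p = 0.798), with a 95% interval from -0.26 to 0.48. Its unscaled intensities were 228 to 307 units on the KO arrays and 333 to 362 on the WT arrays, so the order of the groups for this gene depends on scaling for array brightness. Cebpz stood at 1.92, 2.14 and 1.70 on the KO arrays and at 1.64, 1.93 and 2.00 on the WT arrays. Its log2 difference was 0.066 ± 0.19 (SE, limma adjusted p = 0.906), with a 95% interval from -0.38 to 0.51. The 2 arrays of scan 2 were the lowest of their groups for Cebpz, and the difference was 0.066 within scan 1 and 0.064 within scan 2. Without KO replicate 2 it was -0.044, without WT replicate 1 it was -0.043 and against WT replicate 3 alone it was -0.079, so Cebpz had no settled sign. All 5 tested members had a positive difference over the 6 arrays, where 53.3% of all genes did. The intervals of Cebpg and Cebpz do not reach the estimate for Cebpb, 0.95, nor that for Cebpd, 1.82.

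**Figure D2:**
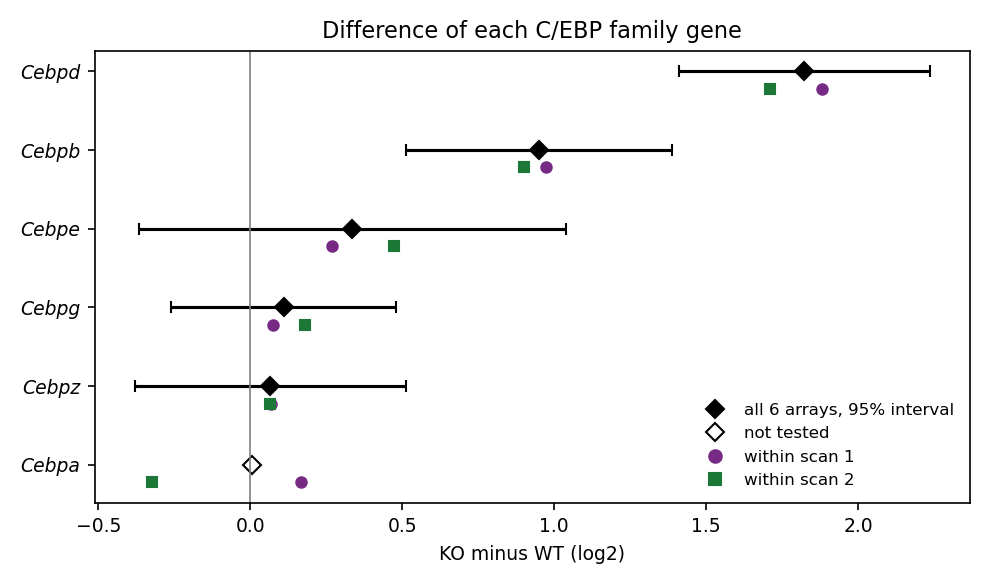
KO minus WT difference of each C/EBP family gene (x axis, log2) over all 6 arrays with its 95% interval from limma (diamonds), within scan 1 (circles) and within scan 2 (squares), with an open diamond for Cebpa, which was not tested. Cebpd (1.82) and Cebpb (0.95) lie to the right of 0 in both scans, while the intervals of Cebpe, Cebpg and Cebpz span 0.

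The unequal differences can also be read within each array as the ratio of 2 members' signals, a quantity that needs no scaling between arrays. Only its difference between groups can be interpreted. That difference follows by arithmetic from the values of the 2 members given above, so it is not separate evidence. The log2 ratio of Cebpd to Cebpb was 0.69 ± 0.20 on the KO arrays and -0.18 ± 0.18 on the WT arrays (SD, n = 3 each), 0.87 higher with no overlap. The log2 ratio of Cebpd to Cebpg was 4.48 ± 0.19 on the KO arrays and 2.77 ± 0.02 on the WT arrays, and that of Cebpb to Cebpg was 3.79 ± 0.09 on the KO arrays and 2.95 ± 0.19 on the WT arrays. Both were higher on every KO array, by 1.71 and 0.84. The log2 ratio of Cebpg to Cebpz was -2.40 ± 0.27 on the KO arrays and -2.45 ± 0.24 on the WT arrays, and the groups overlapped. They also overlapped for Cebpb to Cebpe, at 7.94 ± 0.24 on the KO arrays and 7.33 ± 0.48 on the WT arrays. C/EBP gamma can pair with both C/EBP delta and C/EBP beta, and these values describe transcripts, not protein pairs.

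The genes whose pattern over the 6 arrays was most like that of Cebpd, by Pearson correlation among 14499 named genes, were Irs2, Cracdl, Bmp2, Igfbp2 and Herpud1 (r between 0.991 and 0.996). Irs2 encodes an adaptor of the insulin receptor and Herpud1 a protein of endoplasmic reticulum stress. Their log2 differences were 0.60, 0.80, 0.65, 0.44 and 1.23, and none passed the fit across all genes, with limma adjusted p from 0.0630 to 0.425. The genes most like Cebpb were Trp53inp1, Epc2, Klf9, Etnk1 and Dusp4 (r between 0.990 and 0.996), and Klf9, a transcription factor that glucocorticoids induce, had a log2 difference of 1.41 (limma adjusted p = 0.0633). Genes this closely correlated with Cebpd or Cebpb share the separation of its groups by the way they were chosen. The nearest genes of Cebpe, Cebpg and Cebpz had log2 differences between 0.029 and 0.33 with overlapping groups. Over all 14499 genes the median of the highest correlation with any other gene was 0.996, so such values are usual with 6 arrays.

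Partners and regulators of C/EBP proteins were then counted. Of 26 listed genes 25 were tested, and 0 passed in limma. At an unadjusted p under 0.05, 2 were higher and 3 lower, against 6.15% and 4.23% of all genes. The list had 17 positive differences and 8 negative ones, where 53.3% of all genes had a positive one. Its median log2 difference was 0.16, against 0.028 over all genes. The 4 genes of the list with the smallest p were Nfil3, Trib3, Batf2 and Crebzf. Trib3 encodes a pseudokinase of the stress response and a relative of the proteins that send C/EBP alpha to degradation. It stood at -2.02, -1.16 and -1.43 on the KO arrays and at -2.38, -2.52 and -2.68 on the WT arrays, a log2 difference of 0.99 ± 0.25 (SE, limma adjusted p = 0.322). All its KO arrays lay above its WT arrays. Nfil3, a bZIP repressor, had a log2 difference of 0.74 ± 0.17 (SE, limma adjusted p = 0.286). Crebzf, a bZIP cofactor, stood at 0.53, 0.22 and 0.29 on the KO arrays and at 0.92, 1.06 and 0.88 on the WT arrays, with a log2 difference of -0.61 ± 0.17 (SE, limma adjusted p = 0.353). Batf2, an interferon-induced bZIP gene, had a log2 difference of -0.93 ± 0.23 (SE, limma adjusted p = 0.322) and was well above background on 2 of 3 KO arrays. It entered the fit through its WT arrays only and was 1 of the 3 genes counted as lower.

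Signals known to induce Cebpb and Cebpd were represented by a cytokine list and a glucocorticoid list. Of 26 cytokine pathway genes, 7 did not pass the filter, namely the ligand genes Il6, Osm, Lif, Il1a, Tnf, Il17a and Csf3. Of the other 19, 0 passed in limma, and the median log2 difference was 0.060. At an unadjusted p under 0.05, 1 was higher and 0 lower, against 6.15% and 4.23% of all genes. Jak2, a kinase that works downstream of cytokine receptors, had a log2 difference of 0.46 ± 0.20 (SE, limma adjusted p = 0.480). Il6st, the shared receptor chain of the interleukin-6 family, had one of -0.38 ± 0.20 (limma adjusted p = 0.522), and Lifr and Tnfrsf1a had differences of 0.41 and 0.35 with overlapping groups. Of 14 tested glucocorticoid receptor genes and targets, 13 had a positive difference, where 53.3% of all genes did, and the median was 0.85. For 9 of them all KO arrays lay above all WT arrays and for 0 below, and 9 were higher and 0 lower at an unadjusted p under 0.05, where 10.1% of all genes lay wholly above and 6.15% were higher at that p. The list was drawn up with its members' behaviour known, so these counts are not independent evidence of a direction. Zbtb16, a zinc finger transcription factor, stood at 1.38, 2.21 and 2.03 on the KO arrays and at -0.32, -0.50 and -0.92 on the WT arrays. It was the 1 gene of the list that passed (log2 difference 2.46 ± 0.27, SE, limma adjusted p = 0.0443), where 0.0189% of all genes passed as higher. With scan as a block 3 passed, Errfi1 and Klf9 being the other 2 (adjusted p = 0.0348 and 0.0350), where 0.123% of all genes did. Ddit4 and Fkbp5 had log2 differences of 1.48 and 1.43 (limma adjusted p = 0.0798 and 0.0997). Leaving out any 1 of the 6 arrays left 0 genes of the list past the threshold. The list also had 0 with normexp and quantile normalisation, no filter on dim probes, the mean of probes or the replicate block. The same held with genes well above background on all 6 arrays and within scan 1. Between 1 and 4 passed with the other scalings, the intensity trend or scan as a block.

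Genes that C/EBP proteins are known to activate showed no common direction. Of 25 acute phase genes 16 were tested and 0 passed in limma. Those with an unadjusted p under 0.05 were 1 higher and 2 lower, against 6.15% and 4.23% of all genes. Of the 16, 10 had a positive difference, where 53.3% of all genes did, and 6 a negative one, with a median of 0.089. The fibrinogen gene Fga stood at -3.77, -2.13 and -2.82 on the KO arrays and at -4.07, -3.90 and -4.19 on the WT arrays, a log2 difference of 1.14 ± 0.38 (SE, limma adjusted p = 0.424). The serum amyloid gene Saa2 had a log2 difference of 0.68 ± 0.33 (adjusted p = 0.503) with overlapping groups, while Itih4 had one of -0.64 ± 0.23 (adjusted p = 0.437). Steap4, a metalloreductase, was not well above background on any KO array and was at least 1.01-fold lower there (limma adjusted p = 0.315). That bound compares the WT mean with the detection limit. Steap4 entered the fit through its WT arrays only, so its p-value rests on KO signals near background. It was 1 of the 2 genes counted as lower. The plasma protein genes Orm1, Orm2, Orm3, Crp and Apcs were among the 9 that did not pass the filter.

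Of 22 metabolic and adipocyte targets 15 were tested, and 1 passed, as higher, where 0.0189% of all genes did. Those with an unadjusted p under 0.05 were 2 higher and 1 lower, against 6.15% and 4.23% of all genes. Lpin1, a phosphatidate phosphatase of fat synthesis, stood at -1.505, -1.84 and -1.83 on the KO arrays and at -3.18, -3.25 and -3.12 on the WT arrays. It rose by 1.46 ± 0.17 (SE, log2, limma adjusted p = 0.0489). The list had 0 genes past the threshold when any 1 array was left out. It also had 0 with array median scaling, normexp and quantile normalisation, the mean of probes, no filter on dim probes or the replicate block. So it did with genes well above background on all 6 arrays and within scan 1. It had 1 with quantile normalisation, normexp and the 75th percentile, the intensity trend or scan as a block. Ppargc1a, a coactivator of mitochondrial genes, had a log2 difference of 0.75 ± 0.19 (adjusted p = 0.332), and Plin2, a lipid droplet coat gene, one of -0.82 ± 0.23 (limma adjusted p = 0.369). Pck1, a gluconeogenic enzyme and a textbook C/EBP target in liver, had one of 0.25 ± 0.22 (limma adjusted p = 0.677) with overlapping groups. The list's median was 0.027, and it was -0.044 with quantile normalisation. The adipocyte genes Adipoq, Lep, Ucp1, Plin1 and Cfd did not pass the filter.

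Of 13 genes on the growth arrest list 13 were tested and 0 passed in limma, with a median log2 difference of 0.20. The list also holds Myc, E2f1 and Ccnd1, which promote cell division, so its signs do not all mean the same. Those with an unadjusted p under 0.05 were 4 higher and 2 lower, against 6.15% and 4.23% of all genes. The 2 lower ones were Rbl1 and Myc, and Myc had a log2 difference of -0.62. Cdkn1a, an inhibitor of cyclin-dependent kinases, stood at -0.84, -0.33 and -0.45 on the KO arrays and at -1.72, -2.03 and -1.77 on the WT arrays, a log2 difference of 1.30 ± 0.20 (SE, limma adjusted p = 0.0870). Gadd45g and Cdkn2b had differences of 1.08 and 0.92, while Rbl1, a relative of the retinoblastoma protein, had one of -0.73 (limma adjusted p between 0.268 and 0.425). Over the list, the KO arrays lay wholly above the WT arrays for 4 genes and wholly below for 2, where 10.1% and 8.1% of all genes did so.

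Granulocyte and other myeloid targets, the setting in which Cebpe and Cebpa are best known, were mostly negative in sign without passing the test. Of 23 listed genes 18 were tested and 0 passed in limma. Those with an unadjusted p under 0.05 were 0 higher and 3 lower, against 6.15% and 4.23% of all genes. Of the 18, 12 had a negative difference, where 53.3% of all genes had a positive one, and the list's median was -0.10. With normexp background correction and scaling by the array percentile this median was 0.11, where the median of all genes was 0.14. With normexp and quantile normalisation it was -0.077, where the median of all genes was -0.010. The granule genes Camp, Ltf, Ngp and Ctsg had log2 differences of -0.44, -0.87, -0.67 and -0.58 (limma adjusted p between 0.441 and 0.482). The groups of Ctsg overlapped, and it was well above background on 2 of 3 KO arrays. Camp stood at -2.83, -3.09 and -2.79 on the KO arrays and at -2.40, -2.45 and -2.51 on the WT arrays, while Ngp was well above background on 1 of 3 KO arrays and on all WT arrays. Ngp thus entered the fit through its WT arrays only and was 1 of the 3 genes counted as lower. A list of 22 ribosome assembly genes was set beside Cebpz, and whether they work with Cebpz was not tested. All 22 entered the fit and 0 passed in limma. At an unadjusted p under 0.05, 0 were higher and 2 lower, against 6.15% and 4.23% of all genes. Of the 22, 18 had a negative difference, with a median of -0.076, where 53.3% of all genes had a positive one. Among them Noc4l and Pes1 had differences of -0.64 ± 0.22 and -0.43 ± 0.18 (SE, limma adjusted p = 0.424 and 0.479).

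**Figure D3:**
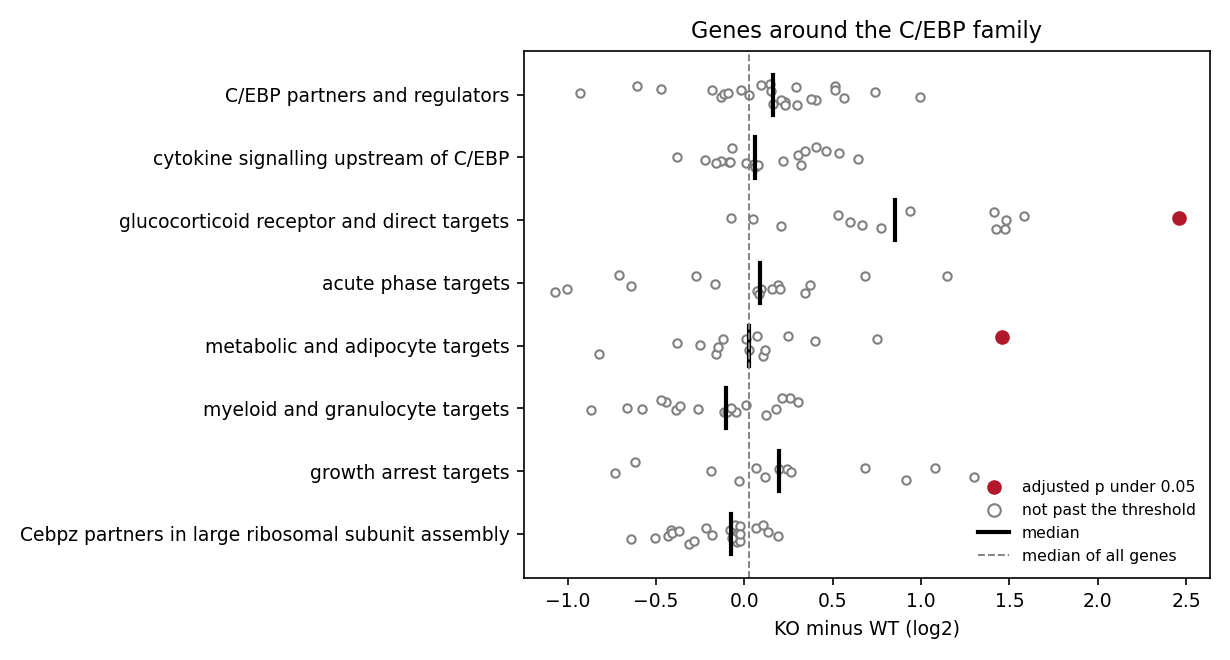
KO minus WT difference (x axis, log2) of each tested gene on the 8 lists around the C/EBP family, with filled points for genes past an adjusted p of 0.05, black bars for each list's median and a dashed line for the median of all genes (0.028). The glucocorticoid list has its median at 0.85, and the other 7 medians lie between -0.10 and 0.20.

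Several cell types of the organ express Cebpb and Cebpd, and their markers did not all stand level between the groups. The 7 urothelial markers tested all had positive differences, 4 had groups that did not overlap, and 0 passed in limma (5 higher at an unadjusted p under 0.05). Of all genes, 53.3% had a positive difference, 10.1% lay wholly above and 6.15% were higher at that p. Their summed level on the linear scale, in units of the array's 75th percentile, was 7.36 to 10.6 on the KO arrays and 4.80 to 5.96 on the WT arrays. Of 8 macrophage markers tested, 6 had a negative difference, and 4 lay wholly below, where 8.1% of all genes did. At an unadjusted p under 0.05, where 4.23% of all genes were lower, 4 of the 8 were lower and 0 higher. Their summed level was 5.68 to 5.93 on the KO arrays and 6.39 to 7.45 on the WT arrays. The brightest of them, Csf1r (log2 level 2.02 on the KO arrays and 2.13 on the WT arrays), made up most of it. Its log2 difference was -0.11 with overlapping groups. The fractalkine receptor gene Cx3cr1 was named after its value was seen, as the 1 marker that passed with scan as a block (log2 difference -1.58 ± 0.21, SE, limma adjusted p = 0.0604, and 0.0350 with the block). With that block 0.17% of all genes passed as lower. Of 10 neutrophil markers 8 had a negative difference, with a median of -0.37, and 4 lay wholly below, where 8.1% of all genes did. At an unadjusted p under 0.05, where 4.23% of all genes were lower, 3 of the 10 were lower and 0 higher. The 3 include Ngp, which was well above background on 1 of 3 KO arrays. Their summed level was 48.8 to 80.0 on the KO arrays and 43.9 to 61.0 on the WT arrays, but it was set mainly by the bright receptor gene Csf3r (log2 level 5.79 on the KO arrays and 5.53 on the WT arrays), which was 1 of the 2 with a positive difference. For adipocytes 2 of 8 markers passed the filter, summing to 0.135 to 0.233 on the KO arrays and 0.135 to 0.141 on the WT arrays, and Adipoq, Plin1 and Cidec did not. Of the adrenal cortex markers Star, Cyp11a1 and Cyp11b2 did not pass, and the 5 tested summed to 0.744 to 0.897 on the KO arrays and 0.628 to 0.704 on the WT arrays. Of these 5, 2 had a positive and 3 a negative difference, with a median of -0.086, and the steroid enzyme gene Hsd3b1 had the largest (1.78). The 6 hepatocyte markers tested summed to 24.1 to 27.3 on the KO arrays and 18.5 to 23.2 on the WT arrays, a sum set mainly by Afp (log2 level 4.398 on the KO arrays and 3.98 on the WT arrays). Of the 6, 3 had a positive and 3 a negative difference, with a median of -0.29. Alb and Ahsg had differences of -1.59 ± 0.73 and -2.01 ± 0.72 (SE, limma adjusted p = 0.486 and 0.437). Their KO arrays were uneven, at -5.11, -1.79 and -3.20 for Alb, whose groups overlapped, and at -3.97, -0.70 and -1.94 for Ahsg. These marker genes were singled out after their values were seen. The red cell markers summed to 2.03 to 3.25 on the KO arrays and 2.32 to 2.84 on the WT arrays. The part of these cell types in the differences of Cebpd and Cebpb was not tested.

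**Figure D4:**
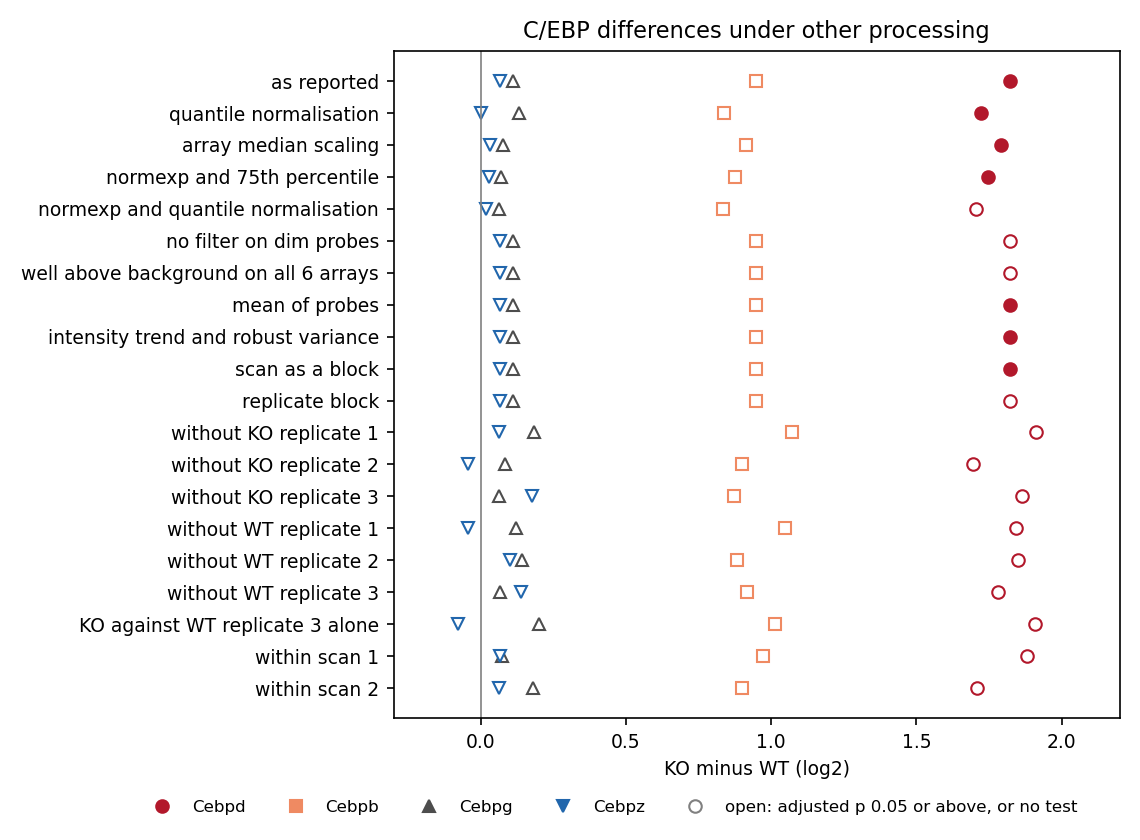
KO minus WT difference (x axis, log2) of Cebpd, Cebpb, Cebpg and Cebpz as reported and under 19 other ways of processing or subsets of arrays (rows), with filled symbols where the adjusted p was under 0.05 and open ones otherwise or where there was no test (within scan 2). Cebpd stayed between 1.70 and 1.91 throughout and passed in 6 of 18 tested alternatives, while Cebpb stayed between 0.84 and 1.07 and passed in none.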

How the data were processed

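Cy3-labelled kidney RNA of 6 neonates was measured on single-colour Agilent arrays, 1 per animal, per the labels' protocols. The authors deposited spot intensities on a linear scale with background already subtracted, as the file headers show, and with no scaling from array to array. The headers name Feature Extraction 11.0.1.1, whereas the submitters' processing notes name version 9.1. Its spot flags (outlier, saturated, well above background) were used as the authors deposited them.

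Control spots (1377 of 44397) and outliers were left out, and spots of 1 probe were averaged as log2 intensity minus the 75th percentile of the array. A RefSeq table (GRCm38.p6) named 27234 of 39429 probes by accession; the array design cites mm9, so no probe coordinates are given. To enter the fit, a probe needed 50% or more of its spots well above background on every array of a group, KO or WT, and the brightest probe stood for its gene. Groups, taken from the labels, were compared with limma 3.58.1 in R 4.3.3 (two-sided, Benjamini-Hochberg over 21220 genes, threshold 0.05), tested on simulated data. With 3 arrays against 3 an exact permutation p cannot go below 0.1. The number of arrays limits the precision.

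The family, the 8 gene lists, the 8 marker lists and the tests were chosen with earlier results of these data known. Named are all members, list genes past the threshold and the 4 with the smallest p of each list, the 5 genes most correlated with each member, Usp10 and markers. For genes not well above background on a whole group, "at least" folds set the bright group's mean against each dim array's detection limit (its lowest flagged signal) or the probe's own signal, whichever was higher. The alternatives were other scalings, normexp background correction on median signals with an offset of 50, other filters, the mean of probes, an intensity trend with robust variance, a scan or replicate block, leaving out each array, WT replicate 3 alone and each scan alone.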

Additional observations from a re-analysis of the deposited data

How the results depend on the processing

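The count of 17 genes that limma called over all genes was 27 with normexp and the 75th percentile, 45 with an intensity trend and robust variance, 62 with scan as a block, 8 with the mean of probes, 1 with genes well above background on all 6 arrays and 1 within scan 1. It was 0 with normexp and quantile normalisation, with no filter on dim probes, with the replicate block and against WT replicate 3 alone, where 2248, 2051, 1609 and 1843 genes had an unadjusted p under 0.05. Leaving out 1 array gave between 0 and 13 genes, and 0 when KO replicate 1 or 2 or WT replicate 1 or 2 was the one left out, where 2690, 1315, 1650 and 2483 genes had an unadjusted p under 0.05. The cause of these shifts was not tested.

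Cebpd did not pass with normexp and quantile normalisation (log2 difference 1.71, adjusted p = 0.0616), nor, at its difference of 1.82, with no filter (0.225), with genes above background on all 6 arrays (0.0503) or with the replicate block (0.163). It did not pass when any 1 array was left out (1.70 to 1.91, adjusted p from 0.0626 to 0.254), against WT replicate 3 alone (1.91) or within scan 1 (1.88). Its limma adjusted p lay between 0.0223 and 0.598 over 18 alternatives. Cebpz was at -0.044 without KO replicate 2, at -0.043 without WT replicate 1 and at -0.079 against WT replicate 3 alone, with a range of -0.044 to 0.18 when 1 array was left out. Among the list medians, that of the cytokine list was 0.25 and that of the myeloid list 0.11 with normexp and the 75th percentile, where the median of all genes was 0.14. Without 1 array the glucocorticoid list's median lay between 0.77 and 1.08. Cebpb, Cebpe and Cebpg kept their direction and their side of the threshold in each setting that gave a test. Cebpa, at 0.0039 and untested in the reported fit, was at 0.21 without KO replicate 3, at -0.042 without WT replicate 1 and at -0.010 against WT replicate 3 alone.

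The replicate numbers did not pair the arrays. Deviations from the group means correlated across genes at -0.40, 0.48 and -0.60 between arrays with the numbers 1, 2 and 3, and KO replicate 3 matched WT replicate 1 of its own scan best (0.89). Cebpa and Cebpe, with 6.52 to 19.3 intensity units, were the members that signal over background limited.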
